A study of Mus musculus with 24 samples.

Results

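The old interspersed repeats described here are the names of the transposable element (TE) table that begin with LTR or MER followed by a digit. This rule, which uses no measured value, took 255 of 1146 TE names, 108 with the LTR prefix and 147 with the MER prefix, and 22 of them carry the ending -int for the internal part of an element. RNA came from 12 tumours of 2153L, a p53-knockout mouse model of triple-negative breast cancer, transplanted as fragments into the cleared mammary fat pads of female BALB/c mice aged 6 to 8 weeks. Every tumour of every group carries the p53 knockout, and treatment began at a volume of about 100 mm3. The 4 treatments, with 3 tumours each, were vehicle, ORIN1001 (an inhibitor of the ribonuclease of IRE1α, an endoplasmic reticulum stress sensor) at 150 mg/kg by daily oral gavage, docetaxel (a taxane that stabilises microtubules) at 10 mg/kg by weekly intraperitoneal injection, and both agents together (the combination). Mice given 1 agent also received the vehicle of the other. Each tumour gave an input library of ribosomal-RNA-depleted total RNA and a J2 library from RNA precipitated with the J2 antibody, which makes 24 libraries in 8 groups. The model is 1 transplanted line grown as bulk tissue, so host cells are part of each sample, and in bulk RNA fewer cells of a type and less RNA per cell cannot be told apart.

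LTR names stand for long terminal repeats, the flanking promoter-bearing ends of endogenous retroviruses. MER stands for medium reiterated frequency repeat, a historical label that covers fragments of cut-and-paste DNA transposons as well as retroviral LTRs. Most of these families stopped moving before rodents and primates parted, so their copies are short, scattered, diverged and mostly found in introns and between genes, where they are carried along in longer transcripts. J2 binds double-stranded RNA without regard to sequence, and a pair of inverted or oppositely transcribed repeat copies is a well-known source of such RNA.

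By knowledge of the names, 48 of the 255 are hAT DNA transposons, 8 are Tc1/mariner DNA transposons, 62 are ERV1 LTRs, 60 are ERVL LTRs, 10 are Gypsy LTRs and 67 were left unclassified. No count was found in any library for 5 names, and 102 names had a count in every library. Reads of a diverged family can be shared among similar names, and the handling of reads with several alignments and of strand is not given in the sources used here. Each value below is therefore that of a name in the table, not of a genomic copy, and levels are not corrected for length.

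The libraries held 2.54 to 63.3 M gene counts and 0.449 to 8.14 M (mega) TE counts, and 5 of them stood apart. In the input of docetaxel tumour 3, 67.6% of gene counts fell on ribosomal RNA loci (0.499% to 3.26% in the other 11 inputs), and TE names took 39.2% of all gene and TE counts. The J2 libraries of that tumour and of all 3 combination tumours had 15.6% to 57.3% of gene counts there, where the other 8 J2 libraries had 1.29% to 6.13%. In the same 4 libraries the young L1Md and L1_Mus names held 5.67% to 35.1% of TE counts, against 1.60% to 2.77% in the other J2 libraries. FordPrefect, a DNA transposon name outside the LTR and MER names, was the most counted TE name in J2 of combination tumours 1 and 3 (17.7% and 7.04%). Charlie, Tigger and other DNA transposon names together held 18.9%, 3.10% and 8.12% in combination J2. They held 0.961% in J2 of docetaxel tumour 3 and 2.92% to 4.84% in the other J2 libraries. The part of these differences in the results below was not tested. Counts of called names are given with all libraries and again without docetaxel tumour 3 or, for J2, for the 8 tumours that hold none of the 5, as far as the design allows. Without docetaxel tumour 3, the docetaxel group has 2 tumours, and since all 3 combination J2 libraries stand apart, the combination and this library composition cannot be told apart in J2 RNA.

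Together the LTR and MER names took a small and steady part of the TE counts of input RNA. The share was 3.08%, 2.99% and 3.04% in the 3 vehicle inputs and 3.20%, 3.06% and 2.99% in the ORIN1001 inputs. In docetaxel inputs it was 2.99%, 2.96% and 2.54%, the last in tumour 3, and in combination inputs 3.15%, 3.38% and 3.46%. The vehicle and ORIN1001 inputs overlapped, and 2 of the 3 combination inputs lay above every other input. The mean in vehicle was 3.04% ± 0.0443 (SD, n = 3), of which LTR names gave 0.451% ± 0.0242 and MER names 2.59% ± 0.0616. By class, hAT names held 1.58% ± 0.0536 of TE counts in vehicle inputs, ERV1 names 0.409% ± 0.0699, Tc1/mariner names 0.396% ± 0.0477, ERVL names 0.384% ± 0.0152 and Gypsy names 0.0422% ± 0.00581.

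**Figure D1:**
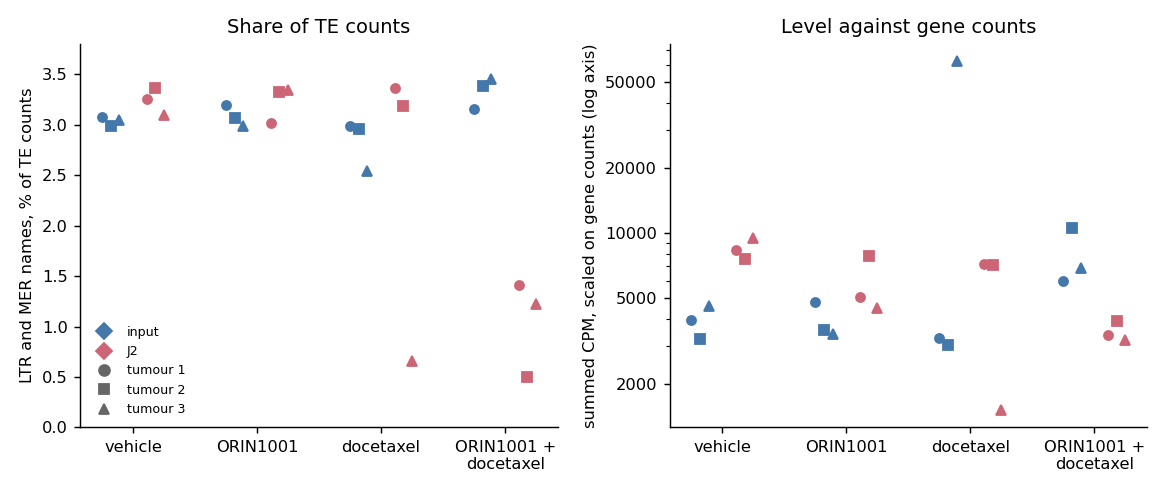
Left, the LTR and MER names as a percentage of TE counts in each library (axis from 0); right, their summed counts per M (CPM) scaled on gene counts over all 24 libraries, on a log axis, with 1 symbol per tumour number, blue for input and red for J2. The inputs lie between 2.54% and 3.46%, the J2 libraries of docetaxel tumour 3 and of the combination lie between 0.496% and 1.41%, and the input of docetaxel tumour 3 stands at 62074 CPM against 3010 to 10544 in the other inputs.

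The counts were spread over many names, with the same few at the top. The 10 names with the most counts in vehicle input, MER5A, MER2, MER20, MER34B-int, MER5B, MER58A, MER58B, MER53, MER3 and MER5A1, held 52.9% to 53.6% of the counts of all LTR and MER names there. All but 2 of these are hAT transposons. MER2 is a Tc1/mariner element, and MER34B-int is the internal part of an ERV1. MER5A, a nonautonomous hAT element, had 3079, 2826 and 2868 counts per M TE counts in the vehicle inputs and 2907, 2951 and 2967 in the combination inputs. MER2 had 2548, 2062 and 2626 in the vehicle inputs and 2935, 3318 and 3338 in the combination inputs, where it passed MER5A as the name with the most counts in all 3 tumours. Between 148 and 160 names reached 10 counts per M TE counts in a vehicle input.

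The first question was whether treatment changed these repeats in total tumour RNA. The tests used edgeR with counts of genes and TE names fitted together and scaled on gene counts (gene scaling), and a name was called at an adjusted p under 0.05 over all TE names tested. With all 12 inputs, 221 of the 255 names passed the filter on low counts. No name was called for ORIN1001, docetaxel or the combination against vehicle, nor for the combination against ORIN1001, where the share called among all 1057 TE names was 0 as well. At an unadjusted p under 0.05 these comparisons gave 0, 100, 7 and 9 names, against 0, 676, 24 and 31 of all TE names. DESeq2, which gave an adjusted p for 151 of the 221 names, called 0, 99 (all higher), 1 and 1, beside 0, 64.8%, 0.451% and 0.226% of 443 TE names. It called 1 name in the combination against docetaxel, beside 0.903% of TE names. The only call was a fall of LTR37-int in the combination against docetaxel, described below, and 0.0946% of TE names were called lower there. The input of docetaxel tumour 3 was far from its group: its summed level of LTR and MER names, scaled on gene counts, was 66949 CPM against 3381 and 3165 CPM in the other docetaxel inputs.

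Without docetaxel tumour 3, ORIN1001 alone still gave no call, and most of the names rose in the combination relative to gene counts. Of 223 names tested, 168 rose and 3 fell in the combination against vehicle, with a median log2 change of 1.21. Among all 1065 TE names, 81.3% were called higher and 0.939% lower (82.3% in all), with a median of 1.12, so the rise was no more frequent among the LTR and MER names (75.3%) than in the TE table as a whole. Against docetaxel, 188 rose and 3 fell with a median of 1.79, where all 12 inputs gave a median of -1.08 (all TE names -1.40), beside 86.9% and 0.939% of TE names (87.9% in all) and a median of 1.66. Against ORIN1001, 170 rose and 3 fell with a median of 1.25, beside 82.4% and 1.13% of TE names (83.6% in all) and a median of 1.18. Docetaxel against vehicle gave no call among the LTR and MER names (0.0939% of TE names were called lower), with a median of -0.56 beside -0.52 for all TE names. With all 12 inputs that median was 2.22 beside 2.45 for all TE names, so this 1 library turned the sign of both docetaxel comparisons. DESeq2 was run with all 12 inputs only. The 3 comparisons share the combination inputs, so their calls are not independent.

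The names with the most counts moved together in this comparison. MER2 stood at 356, 233 and 436 CPM in the vehicle inputs and 615, 1146 and 748 CPM in the combination inputs, so the groups did not overlap. Its log2 change was 1.31 ± 0.29 (SE; adjusted p = 0.0043), or 2.48-fold. MER44D, a further Tc1/mariner element, stood at 29.4, 16.5 and 39.0 CPM against 62.1, 128 and 78.8 CPM, a log2 change of 1.68 ± 0.36 (adjusted p = 0.0043). MER5A rose less, from 430, 319 and 476 CPM to 609, 1019 and 665 CPM, with a log2 change of 0.92 ± 0.21 (adjusted p = 0.0043). Of the 10 most counted names, 9 rose, with log2 changes from 0.92 to 1.31, and MER53 did not pass the test (-0.05 ± 0.18, adjusted p = 0.789). The exception was thus a hAT element like most of the others. With all 12 inputs MER2, MER44D and MER5A changed by 1.29 ± 1.00, 1.67 ± 1.06 and 0.90 ± 0.92, and none passed the test (adjusted p = 0.521 for each).

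Only 3 names fell. LTR37-int, the internal part of an ERV1 element, stood at 18.6, 27.4 and 16.5 CPM in the vehicle inputs and 9.15, 5.58 and 6.58 CPM in the combination inputs, below every vehicle, ORIN1001 and docetaxel input. It fell by 1.54 ± 0.25 on the log2 scale against vehicle (adjusted p = 0.0043, 2.90-fold lower), and with all 12 inputs the value was -1.55 ± 0.27 (adjusted p = 0.122). With all 12 inputs its change against docetaxel was -2.34 ± 0.27 (adjusted p = 0.00411), and without docetaxel tumour 3 it was -2.41 ± 0.27 (adjusted p = 0.000738). In that comparison leaving out combination tumour 3 took the count of calls from 1 to 0. The other 2 names, LTR16D2 (an ERVL LTR, -0.37 ± 0.12) and LTR75 (unclassified, -0.37 ± 0.15), were chosen after their values were seen.

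Scaling on TE counts asks a different question, namely whether a name changed relative to the rest of the repeats, and it moved the median of all TE names in this comparison from 1.12 to 0.01. With all 12 inputs it left no call against vehicle, among LTR and MER names as among all TE names. Without docetaxel tumour 3, a setting chosen after the data were seen, 13 of 220 names were higher and 25 lower in the combination than in vehicle, beside 4.55% and 17.7% of all TE names. The median over the LTR and MER names was 0.08. Under both scalings 13 names were higher and 3 lower, while 4 names were higher on gene counts and lower on TE counts, MER5A among them (-0.22 ± 0.07, adjusted p = 0.0395). Among all TE names these shares were 4.55%, 0.949% and 8.25%.

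Of the falls relative to other repeats, 17 were among 92 tested LTR names and 8 among 128 tested MER names, beside 5 and 8 rises. Among all TE names 17.7% fell and 4.55% rose, so the LTR names fell about as often as the whole table. By class, 4 of 10 Gypsy names fell with none higher and a median of -0.38, while 3 of 48 hAT names rose and 4 fell with a median of 0.16. LTR37-int went from 133, 243 and 99.7 counts per M TE counts in the vehicle inputs to 43.7, 16.1 and 29.4 in the combination inputs, a log2 change of -2.69 ± 0.45 (adjusted p = 0.0133), or 6.45-fold lower. MER53 went from 890, 1249.5 and 694 to 510, 425 and 492 counts per M TE counts, with no overlap, a log2 change of -1.24 ± 0.24 (adjusted p = 0.0137). The Gypsy name LTR81C went from 227, 253 and 197 to 129, 77.3 and 110, a log2 change of -1.34 ± 0.24 (adjusted p = 0.0133). LTR50, an ERVL LTR, went from 387, 519 and 342 to 257, 168 and 258, with a log2 change of -1.11 ± 0.24 (adjusted p = 0.0155). In the opposite direction MER44D went from 210, 146 and 235 to 296, 371 and 352 (0.57 ± 0.15, adjusted p = 0.0249), and MER68B, an ERVL LTR, from 42.5, 24.4 and 48.0 to 62.6, 91.4 and 75.6 (0.79 ± 0.24, adjusted p = 0.0366). The classes differ in number and in counts per name, and no test of one class against another was made.

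**Figure D2:**
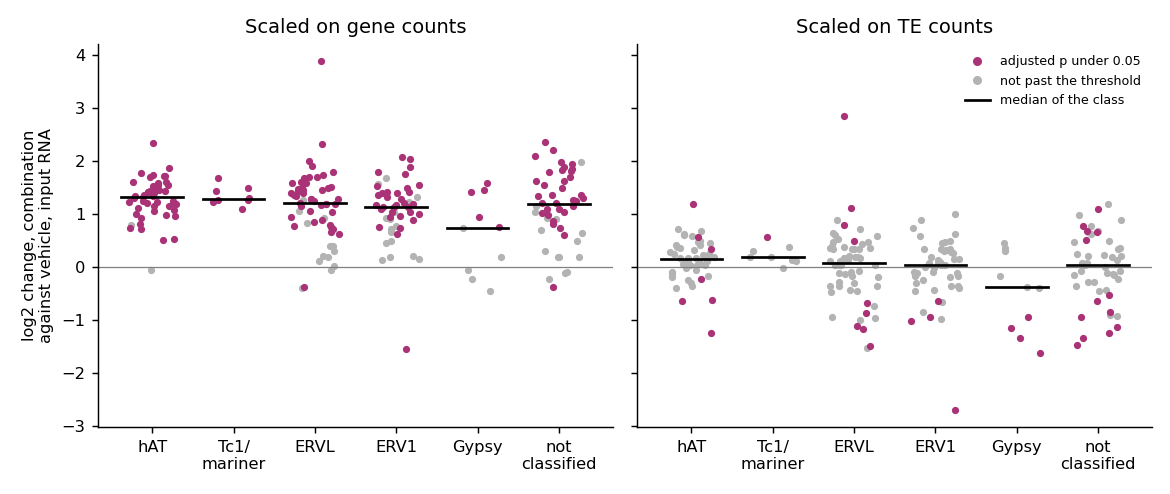
Log2 change of each tested LTR or MER name in combination against vehicle inputs, without docetaxel tumour 3, by class, scaled on gene counts (left) and on TE counts (right); each point is a name, purple at an adjusted p under 0.05, and the black line is the median of the class. On gene counts the class medians lie between 0.74 (Gypsy) and 1.31 (hAT), and on TE counts between -0.38 (Gypsy) and 0.19 (Tc1/mariner).

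In the combination against docetaxel, TE scaling with all 12 inputs called 2 names higher and 1 lower, beside 0.669% and 2.39% of TE names. Each of these was also called without docetaxel tumour 3, where 49 names were higher and 45 lower beside 21.8% and 28.3% of TE names. MER5C1, a hAT element, stood at 15.8, 23.0 and 17.6 counts per M TE counts in the docetaxel inputs and 39.3, 46.6 and 46.7 in the combination inputs (log2 change 0.84 ± 0.18, adjusted p = 0.0361). MER44D stood at 157, 130 and 177 against 296, 371 and 352 (0.77 ± 0.17, adjusted p = 0.0467). LTR81C stood at 203, 216 and 139 against 129, 77.3 and 110, a log2 change of -1.19 ± 0.28 (adjusted p = 0.0488). All 3 comparisons separated the groups without overlap. Against ORIN1001, TE scaling called no name with all 12 inputs and, without docetaxel tumour 3, gave 15 higher and 33 lower names, beside 7.59% and 18.9% of TE names.

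Genes that act on repeats or on double-stranded RNA were read in the same fit. Of 26 repeat silencing genes, 4 rose and 2 fell in the combination against vehicle without docetaxel tumour 3, with a median log2 change of 0.03, and none of 12 double-stranded RNA sensors was called (median 0.15). Of all 18475 genes tested there, 2652 rose and 2440 fell. With all 12 inputs no gene of these or the following lists was called, where 179 of 17768 genes rose and 122 fell. Other lists went in both directions. Of 6 nuclear-retained RNAs, 2 rose (median 0.96). Their summed level was 3958 to 8719 CPM in the vehicle inputs and 8201 to 14834 CPM in the combination inputs, and these ranges overlap. Of 7 leukocyte markers tested, 4 rose and 1 fell, with a summed level over 8 markers of 158 to 189 CPM in vehicle and 281 to 377 CPM in the combination. Epithelial markers, 2 of 7 lower, summed to 1937 to 2407 CPM in vehicle and 1395 to 1994 CPM in the combination, with overlap and none at 0. Of 6 fibroblast markers 1 fell (median 0.38). No endothelial (median 0.20), erythroid (median -2.99) or adipocyte marker (median -0.85) was called. The part of these cells and RNAs in the rise of the LTR and MER names was not tested.

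The second question was which of these repeats were held by the J2 antibody. In the 8 tumours whose J2 libraries did not stand apart, J2 and input gave the LTR and MER names nearly the same share of TE counts. The J2 share was 3.25%, 3.37% and 3.09% in vehicle, 3.02%, 3.33% and 3.34% in ORIN1001 and 3.36% and 3.18% in docetaxel tumours 1 and 2. In 7 of these 8 tumours the J2 share was above the input of the same tumour, by 0.0476 to 0.377 percentage points, and in ORIN1001 tumour 1 it was 0.179 points below. In docetaxel tumour 3 the J2 share was 0.658%, and in the combination tumours 1.41%, 0.496% and 1.22%, which is 1.74 to 2.89 points below the matched inputs.

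The fit of J2 against input took in the 24 libraries and held each tumour as its own block. With gene scaling and all 12 tumours, 2 of 220 names were higher and 1 lower on average over treatments, beside 3.71% and 0.951% of TE names, and none was called within a treatment. At an unadjusted p under 0.05 the single treatments gave 8, 3, 5 and 42 names in vehicle, ORIN1001, docetaxel and combination tumours, against 69, 26, 24 and 190 of all TE names. DESeq2 called 5 names on average and 2, 0, 0 and 38 within the treatments, beside 9.6% of TE names on average and 0.856%, 0.19%, 0.285% and 15.1%. The names on average were MER66B (1.91 ± 0.32, adjusted p = 0.00767) and MER89-int (1.71 ± 0.34, adjusted p = 0.0142), both ERV1, and LTR37-int (-2.06 ± 0.29, adjusted p = 0.00514). MER66B and MER89-int had few counts: MER66B stood at 1.80, 2.33 and 3.05 counts per M TE counts in the vehicle inputs and 7.17, 8.33 and 14.0 in their J2 libraries.

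Restricted to the 8 tumours, a setting chosen after the data were seen, J2 RNA held more of most names than input on the scale of gene counts. On average over the 3 treatments 167 of 217 names were higher and 8 lower, with a median log2 ratio of 0.94. All TE names gave 82.5% higher and 3.62% lower with a median of 0.93, so this was the shift of the whole TE table. By treatment, 159 names were higher in vehicle tumours (TE names 79.6%), 51 in ORIN1001 tumours (30.6%) and 158 in docetaxel tumours (79.4%). The median log2 ratio per tumour, with all 24 libraries scaled together, was 0.92, 1.09 and 0.75 in vehicle, -0.25, 0.83 and 0.04 in ORIN1001 and 1.01 and 1.17 in docetaxel tumours 1 and 2. ORIN1001 tumour 2 lay with the vehicle tumours and the other 2 ORIN1001 tumours below them. The difference between ORIN1001 and vehicle was tested as an interaction, and no LTR or MER name was called in it (TE names 0.0953% lower), with a median change of -0.78 in log2 ratio.

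**Figure D3:**
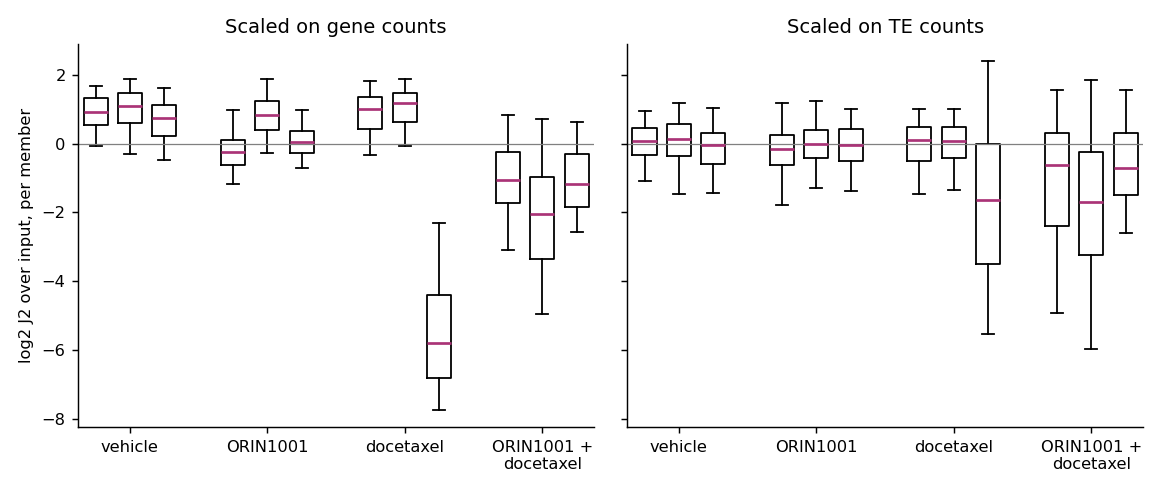
Log2 ratio of J2 to input for the tested LTR and MER names in each tumour (tumours 1 to 3 from left to right within a treatment), scaled on gene counts (left, 220 names) and on TE counts (right, 219 names), with a pseudocount of 0.5 CPM. Boxes span the quartiles with the median in purple and whiskers reach the 5th and 95th percentiles. On TE counts the first 8 tumours have medians from -0.16 to 0.13, and docetaxel tumour 3 and the combination tumours from -1.70 to -0.63.

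Relative to the other repeats, names stood on both sides in J2, about as often as in the whole TE table. Under TE scaling with the 8 tumours, 46 of 220 names were higher in J2 than in input and 41 lower, beside 24.5% and 23.6% of TE names, and the median was 0.01 for both. The average over all 12 tumours gave 14 higher and 48 lower with a median of -0.32 (TE names 15.0% and 19.2%, median -0.16). Without docetaxel tumour 3 it gave 29 and 57 with a median of -0.18 (TE names 22.4% and 21.5%, median -0.04). By class, the 8 tumours gave 13 higher and 9 lower of 48 hAT names (median 0.15) and 4 higher and none lower of 8 Tc1/mariner names (median 0.20). ERV1 names gave 7 higher and 10 lower of 47 (median -0.11), ERVL names 14 higher and 9 lower of 57 (median 0.02), and Gypsy names 1 higher and 4 lower of 10 (median -0.44). In all 3 treatments taken singly, 5 names were higher (MER124, MER44C, MER51-int, MER68 and MER68B) and 9 lower (LTR37-int, LTR41B, LTR53B, LTR75, LTR85c, MER135, MER57E2, MER58C and MER89); those of them outside the naming rule were named here after their values were seen. Among all TE names 4.37% were higher and 6.46% lower in all 3 treatments.

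**Figure D4:**
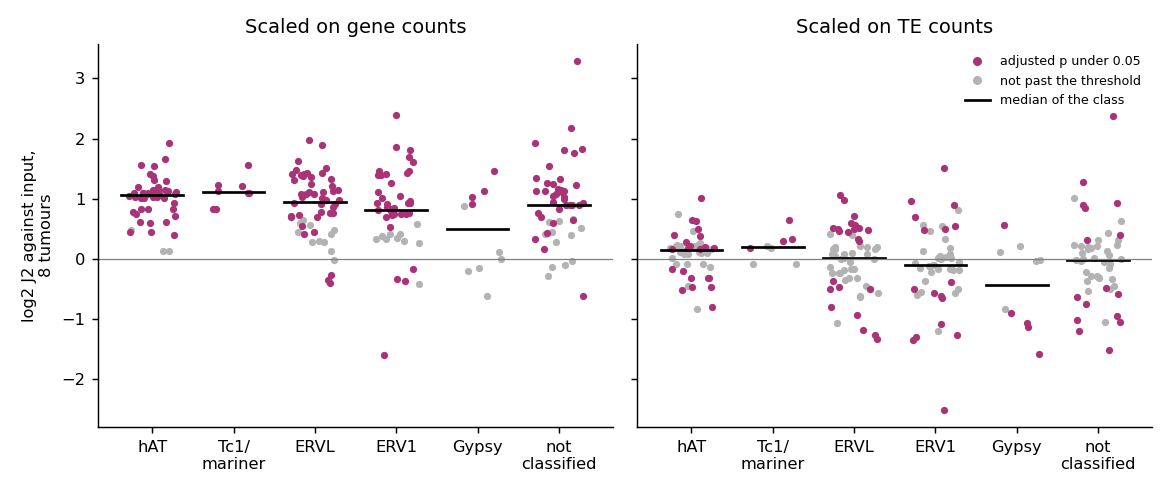
Log2 ratio of J2 to input for each tested LTR or MER name by class, averaged over vehicle, ORIN1001 and docetaxel (8 tumours), scaled on gene counts (left) and on TE counts (right); purple points have an adjusted p under 0.05 and the black line is the class median. On the right the highest point is MER124 at 2.37 and the lowest LTR37-int at -2.52.

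MER124, an old conserved repeat of unassigned class, had the highest J2 to input ratio of the LTR and MER names in these 8 tumours. Its inputs ran from 185 to 330 counts per M TE counts over all 12 tumours, with no treatment apart. Its J2 libraries held 875, 1488 and 1208 in vehicle, 1632, 1492 and 2524 in ORIN1001, and 2063 and 559 in docetaxel tumours 1 and 2, each above every input. The average log2 ratio was 2.37 ± 0.17 (adjusted p = 8.5e-07), or 5.16-fold, with 2.20 ± 0.26 in vehicle (adjusted p = 0.000123), 3.09 ± 0.27 in ORIN1001 (adjusted p = 2.32e-05) and 1.82 ± 0.33 in docetaxel (adjusted p = 0.00274). In docetaxel tumour 3 and the 3 combination tumours its J2 libraries held 13.1, 343, 21.7 and 178, above the matched input in combination tumour 1 alone, or in tumours 1 and 3 with the scaling factors given below. The combination J2 to input ratio without docetaxel tumour 3 was not called on TE counts (adjusted p = 0.738), and its change against vehicle was -3.73 ± 0.60 on gene counts (adjusted p = 5.16e-05) and -1.74 ± 0.66 on TE counts (adjusted p = 0.04998).

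LTR37-int lay at the other end. Its vehicle J2 libraries held 15.4, 34.2 and 9.21 counts per M TE counts where the inputs held 133, 243 and 99.7. In ORIN1001 the J2 values were 31.9, 21.0 and 64.1 against 130, 157 and 223, and in the combination 8.90, 1.12 and 3.83 against 43.7, 16.1 and 29.4. J2 was below input in 12 of 12 tumours on these levels, and in 11 of 12 with the scaling factors given below, docetaxel tumour 3 being the exception. The average log2 ratio in the 8 tumours was -2.52 ± 0.16 on TE counts (adjusted p = 5.46e-07) and -1.60 ± 0.13 on gene counts (adjusted p = 5.68e-07). It was the 1 LTR or MER name lower in J2 on gene counts in each of the 3 treatments (TE names 1.33%), and it was also the name that fell most in combination input RNA.

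**Figure D5:**
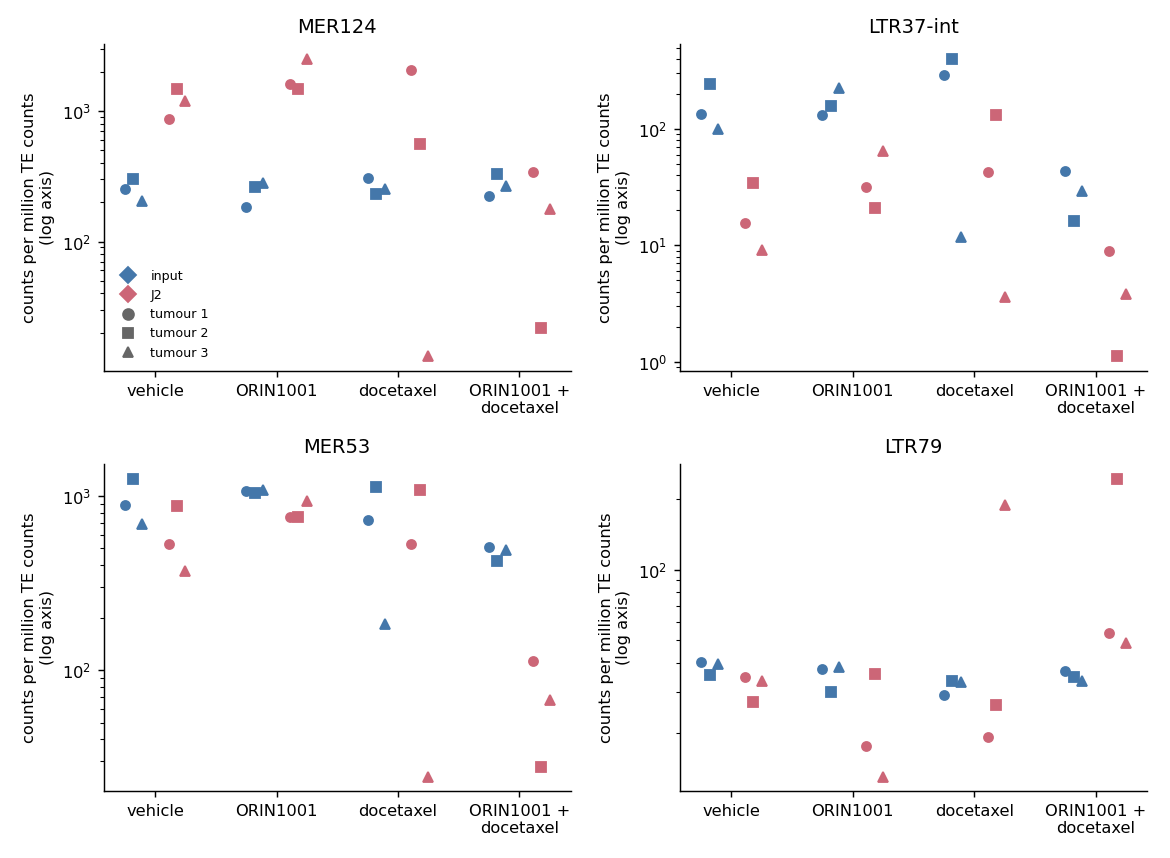
The counts per M TE counts, on log axes, of MER124, LTR37-int, MER53 and LTR79 in each library, with 1 symbol per tumour number, blue for input and red for J2. MER124 is above its inputs in J2 of the 8 tumours and LTR37-int is below its input in all 12; LTR79 is at 189 in J2 of docetaxel tumour 3 and 244 in J2 of combination tumour 2.

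Several other names stood apart from the rest of the repeats in J2 of the 8 tumours, on TE counts. MER21C, an ERVL LTR, held 910, 873 and 901 counts per M TE counts in vehicle J2 against 636, 548 and 588 in the inputs, with an average log2 ratio of 0.56 ± 0.06 (adjusted p = 2.19e-05). MER68B held 78.8, 66.9 and 76.6 against 42.5, 24.4 and 48.0 (0.98 ± 0.11, adjusted p = 1.54e-05). Its relative MER68, named after its values were seen, gave 1.07. LTR73, which was not classified, gave 0.84 ± 0.14 (adjusted p = 0.00037). These vehicle J2 values did not overlap the matched inputs. On the lower side LTR45, also not classified, held 49.1, 62.9 and 49.2 in vehicle J2 against 174, 224 and 156 in the inputs, with a ratio of -1.53 ± 0.18 (adjusted p = 2.49e-05). LTR41B (-1.19 ± 0.11, adjusted p = 4.68e-06), LTR78B (-1.09 ± 0.13, adjusted p = 3.07e-05), LTR50 (-0.94 ± 0.11, adjusted p = 2.1e-05) and MER53 (-0.47 ± 0.07, adjusted p = 0.000128) were lower as well.

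Names that fell in combination input RNA were also compared with the names held less by J2 in other tumours. The 2 contrasts set different libraries against each other: combination against vehicle inputs, and J2 against input in docetaxel tumours 1 and 2, both on TE counts. The fits behind them share libraries, since the inputs of vehicle, ORIN1001 and docetaxel tumours 1 and 2 entered both. Their scaling and spread estimates, and so their calls, are therefore not independent. Of the 25 names lower in combination inputs, 15 were called lower in docetaxel J2 and none higher, with a median J2 log2 ratio of -1.07. These 15 were 60% of the 25 and 65.2% of the 23 names lower in docetaxel J2. Of 182 names not called in input, 8 were lower and 12 higher in docetaxel J2 (median 0.15). In ORIN1001 J2, 8 of the 25 were lower and 2 higher (median -0.38), against 15 lower and 25 higher of the 182 (median -0.06). Over 219 names the 2 log2 values had a Pearson r of 0.61 and a Spearman rho of 0.58 for docetaxel and 0.19 and 0.14 for ORIN1001. The points of such a plot share their name's base composition and count depth, names are not independent replicates, and the overlap was noticed after the data were seen. The whole TE table gave a like picture: 82 of the 187 TE names lower in combination inputs were lower in docetaxel J2 (43.9%, or 64.6% of the names lower there) and 5 higher, with a Pearson r of 0.60 and a Spearman rho of 0.56. In ORIN1001 J2, 59 of the 187 were lower (31.6%) and 34 higher, with 0.16 and 0.09.

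The third question was whether J2 recovery changed with treatment. For ORIN1001 and docetaxel against vehicle no LTR or MER name was called in the change of the J2 to input ratio, with all 12 tumours, without docetaxel tumour 3 or with 8 tumours, under either scaling; at most 0.0953% of TE names were called in any of these. With all 12 tumours and gene scaling, edgeR gave 0 and 2 names at an unadjusted p under 0.05, against 0 and 6 of all TE names. DESeq2 called none, among LTR and MER names as among all TE names. With the 8 tumours and gene scaling, edgeR gave 85 and 16 of 217 names at an unadjusted p under 0.05, against 490 and 66 of 1049 TE names. The smallest edgeR adjusted p among the LTR and MER names there was 0.0549 for ORIN1001 and 0.378 for docetaxel. The median SE per name was 0.33 to 1.60 on the log2 scale over these fits, so small changes of single names were not detectable.

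In the combination tumours J2 recovered less of most LTR and MER names relative to gene counts once docetaxel tumour 3 was left out. With all 12 tumours and gene scaling no name was called in the combination or in its change against vehicle (TE names 2.57% higher and 0.19% lower in the combination, and 0 in its change). At an unadjusted p under 0.05 edgeR gave 62 names in that change, against 197 of all 1052 TE names. DESeq2 called 34, all lower (9.98% of TE names in either direction). On TE counts the libraries also differed in their TMM scaling factor, which was 0.260 to 0.652 in combination J2 and 0.215 in J2 of docetaxel tumour 3, against 1.06 to 1.29 in the other J2 libraries and 1.08 to 1.40 in the inputs. Fitted log2 ratios on TE counts include this factor and plain counts per M TE counts do not, so a fitted ratio for these libraries lies above that of the plain levels. TE scaling called 17 of 219 names higher and 60 lower in J2 than in input (TE names 19.1% and 21.2%) with a median log2 ratio of -0.96 beside -0.33 for all TE names. Its change against vehicle gave 6 higher and 17 lower (TE names 6.2% and 5.63%). Without docetaxel tumour 3, the J2 to input ratio gave 11 higher and 144 lower on gene counts (TE names 13.4% and 57.1%, medians -1.70 and -1.12) and 27 higher and 74 lower on TE counts (24.8% and 27%, medians -0.76 and -0.21). The change against vehicle gave 2 higher and 182 lower on gene counts (3.88% and 77.1%) and 21 higher and 57 lower on TE counts (23.3% and 18.4%).

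The counts by class were uneven, and no test of one class against another was made. On TE counts without docetaxel tumour 3, 25 of 48 hAT names and 6 of 8 Tc1/mariner names were lower in combination J2 than in input (medians -0.97 and -1.16), with 1 hAT name higher. Among all TE names 24.8% were higher and 27% lower. Such falls were not particular to these classes: names of the L1M, HAL1 and L1P group gave 5 higher and 55 lower of 90 (median -0.86). ORR1 and MT names went the other way, with 44 higher and 0 lower of 54 (median 1.40). ERV1 names gave 9 higher and 17 lower of 47, ERVL names 7 higher and 14 lower of 58, and Gypsy names 5 higher and none lower of 10 (median 0.48). MER2 held 823, 168 and 697 counts per M TE counts in combination J2 against 2935, 3318 and 3338 in the inputs, or 1262, 647 and 1168 CPM against 2238, 2377 and 2395 CPM with the factors, a log2 ratio of -1.15 ± 0.21 (adjusted p = 0.000633). MER5C, a hAT element, held 2.23, 0 and 4.98 against 55.9, 82.1 and 60.1 (-3.02 ± 0.56, adjusted p = 0.0008). MER5C1 held 0, 2.23 and 2.68 against 39.3, 46.6 and 46.7 (-2.70 ± 0.44, adjusted p = 0.000286). LTR91, an ERVL LTR, had no count in the 3 combination J2 libraries and 16.9, 6.86 and 12.2 counts per M TE counts in the inputs, which is at least 6.41-fold lower on TE counts and at least 12.2-fold lower on gene counts with a floor of 3 counts over the group. In all, 43 names were at 0 in every combination J2 library, against 19 in every vehicle J2 library. With the 12 tested names of that kind set at their floor, the median log2 ratio was -0.72 in place of -0.76.

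On TE counts with the scaling factors a smaller set of names was higher in combination J2. LTR81C stood at 184, 253 and 376 CPM on TE counts in combination J2 against 98.1, 55.4 and 78.9 CPM in the inputs, and in vehicle J2 at 100.4, 113 and 91.6 CPM against 178, 228 and 151 CPM. Without the factors it held 120, 65.8 and 224 counts per M TE counts in combination J2 against 129, 77.3 and 110, lower than input in 2 of the 3 tumours. The change of its J2 to input ratio against vehicle was 2.66 ± 0.52 on TE counts with all 12 tumours (adjusted p = 0.011) and 0.76 ± 0.27 on gene counts without docetaxel tumour 3 (adjusted p = 0.0189). LTR78B changed by 2.50 ± 0.51 (adjusted p = 0.012) and LTR50 by 2.15 ± 0.39 (adjusted p = 0.0095) on TE counts with all 12 tumours. Without docetaxel tumour 3 LTR78B gave 2.61 on TE counts and 0.57 ± 0.19 on gene counts (adjusted p = 0.0127), and LTR50 gave 2.25 and 0.21 ± 0.20 (adjusted p = 0.337). LTR79, an ERVL LTR, held 53.4, 244 and 48.6 in combination J2 and 189 in J2 of docetaxel tumour 3, against 13.1 to 35.9 in the other 8 J2 libraries and 29.1 to 40.5 in the inputs. Its combination log2 ratio on TE counts was 2.81 ± 1.04 with all 12 tumours (adjusted p = 0.0492) and 3.00 ± 0.60 without docetaxel tumour 3 (adjusted p = 0.00128). MER89-int, which was at 0.698 to 4.66 in the inputs, held 8.90, 17.8 and 13.4 in combination J2 (3.52 ± 1.12, adjusted p = 0.0269). Without docetaxel tumour 3 its log2 ratio was 3.63 on TE counts and 2.69 ± 0.60 on gene counts (adjusted p = 0.00103). MER67C, an ERV1 LTR, held 31.2, 58.0 and 31.0 counts per M TE counts against 21.5, 26.6 and 27.5 in the inputs, or 47.8, 223 and 52.0 CPM against 16.4, 19.1 and 19.7 CPM with the factors. Its log2 ratio was 2.20 ± 0.69 (adjusted p = 0.0262), and without docetaxel tumour 3 it was 2.32 on TE counts and 1.38 ± 0.37 on gene counts (adjusted p = 0.00364).

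MER5A weighed more in 2 of the 4 J2 libraries that stood apart. It alone gave 44.7% of the counts of LTR and MER names in J2 of docetaxel tumour 3 and 30.0% in J2 of combination tumour 2, against 8.58% to 10.6% in the other 22 libraries. Its J2 level was 2941 counts per M TE counts in docetaxel tumour 3, against 2326 in the input, and 1486 in combination tumour 2, against 2951 in the input. Without MER5A the share of the other names in TE counts was 0.364% in J2 of docetaxel tumour 3 and 1.29%, 0.347% and 1.10% in the combination. The number of names with no count was 117 in J2 of docetaxel tumour 3 and 95, 108 and 44 in the combination, against 21 to 36 in the other J2 libraries, and these 4 libraries held 0.449 to 2.61 M TE counts.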

How the data were processed

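The submitters' processing notes name mm10 as the build and list featureCounts 2.0.3, STAR 2.7.3a and fastp 0.23.2, with no role given for any tool. The authors deposited whole-number counts per gene and per TE name, not normalized. The LTR and MER names, their classes and the gene lists were chosen with earlier results of these data known. Tests used edgeR 4.0.16 (R 4.3.3, limma 3.58.1) with the quasi-likelihood test, after filterByExpr (minimum count 10, minimum total 15). Library sizes and TMM factors came from gene counts (gene scaling) or from the TE table (TE scaling). Gene and TE counts were fitted together with gene scaling, and TE names were fitted alone with TE scaling. Benjamini-Hochberg adjustment ran over all TE names tested. With gene scaling these were 1057 in the 12 inputs and 1052 in the 24 libraries, and with TE scaling 1047 and 1048. The inputs were fitted with 1 coefficient per treatment. The 24 libraries were fitted with a block for each tumour and a separate J2 term per treatment. The block follows the series' design, which pairs J2 with input; deviations of input and J2 of 1 tumour correlated above 0.1 in 9 of 12 tumours (-0.00884 to 0.776). The adjusted p threshold was 0.05, errors after ± are SE unless SD is written, and all tests were two-sided.

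Alternatives were TE scaling, DESeq2 1.42.0 with its size factors, no low-count filter, the block and each tumour left out in turn. TE scaling without docetaxel tumour 3 and the fits to 8 tumours were added after seeing the data. Names in the text are the 10 with the most counts in vehicle input and, per comparison, up to 4 called rises and 4 called falls under gene scaling with a mean log2 CPM not below 0 and no overlap between groups (or the 3 smallest p where none passed), and up to 3 each way under TE scaling, all with every library; others are said to be chosen later. On simulated counts 200 rows were changed at a log2 change of 1.5. The test of the combination against vehicle inputs recovered 93.5% of them (18245 genes and 1059 TE names). That of J2 against input in vehicle recovered 91% (17126 genes and 1039 TE names), and the 2 tests called 4 and 5 unchanged rows. These recoveries do not give the power of the fits to the measured counts. With every input and gene scaling, the combination against vehicle had a median SE of 0.97 per LTR or MER name. No such name was called there at a median log2 change of 1.19. Spearman correlations between replicates ran from 0.848 to 0.995 over TE names, and chi-square divided by its degrees of freedom was at least 17.3, so no library was counted as a repeat of another. The depth of 0.449 to 8.14 M TE counts sets counting error only; the bounds given for names at 0 use 3 counts. The level of 1 marker gene is not reported here.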

Additional observations from a re-analysis of the deposited data

Results flagged for a closer look

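The change of the J2 to input ratio between the combination and vehicle was tested as an interaction, and names passed it. It called 23 LTR and MER names on TE counts with all 12 tumours (11.8% of all TE names were called), 184 on gene counts without docetaxel tumour 3 (81% of all TE names) and 78 on TE counts without that tumour (41.8%). These are 10.5%, 83.3% and 35.1% of the LTR and MER names tested, counting rises and falls. On TE counts the directions differed from the whole table, but more falls than rises were not particular to these names. With all 12 tumours 2.74% of the LTR and MER names were higher and 7.76% lower, against 6.2% and 5.63% of all TE names. On TE counts without docetaxel tumour 3, 9.46% were higher and 25.7% lower, against 23.3% and 18.4% of all TE names. In that setting the L1M, HAL1 and L1P names gave 7 higher and 35 lower of 90. ORR1 and MT names gave 34 higher and 1 lower of 54, and L1Md and L1_Mus names 10 higher and 0 lower of 10. The share of the LTR and MER names in TE counts moved in opposite directions in the same 2 treatments, without a test of the difference. J2 minus input was 0.200 percentage points on average in the 3 vehicle tumours, each above 0, and -2.29 points on average in the 3 combination tumours, each below 0. All 3 combination J2 libraries are among the 4 with high counts on ribosomal RNA loci and on young L1 names, and the combination cannot be told apart from that composition.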

How the results depend on the processing

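Counts below are LTR and MER names called, with gene scaling and all libraries as the reference. No share over all TE names was computed for the fits with no filter. The settings that join TE scaling with docetaxel tumour 3 left out, and those with 8 tumours, were chosen after the data were seen. For docetaxel against vehicle (reference 0), DESeq2 called 99 and no filter 95. For the combination against vehicle (0), DESeq2 called 1 and TE scaling without docetaxel tumour 3 called 38. Against docetaxel (1) TE scaling called 3, and 94 without docetaxel tumour 3. Against ORIN1001 (0), DESeq2 called 1 and TE scaling without docetaxel tumour 3 called 48. For J2 against input on average (3), TE scaling called 62, DESeq2 5, TE scaling without docetaxel tumour 3 86, 8 tumours 175, and 8 tumours with TE scaling 87. The same order within treatments was as follows. Vehicle (0) gave 9, 2, 22, 162 and 60, and no filter gave 2. ORIN1001 (0) gave 2 with TE scaling, 16 without docetaxel tumour 3, and 56 and 52 with 8 tumours. Docetaxel (0) gave 6, 13, 162 and 38 under these 4 settings. With all 12 tumours TE scaling called 0.763% of TE names higher and 2.96% lower in vehicle. It called 1.15% and 0.763% in ORIN1001, and 0.477% and 3.05% in docetaxel. Without docetaxel tumour 3 these shares were 4.73% and 8.22%, 8.32% and 5.39%, and 0.851% and 4.54%. With 8 tumours and TE scaling they were 17.4% and 17.9%, 19.4% and 16.6%, and 8.94% and 12.1%. The combination (0) gave 77 with TE scaling, 38 with DESeq2, 14 with no filter and 101 with TE scaling without docetaxel tumour 3. For the change of the ratio in the combination (0), TE scaling called 23, DESeq2 34, and TE scaling without docetaxel tumour 3 called 78.

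Leaving out 1 tumour at a time gave 0 to 166 names for docetaxel against vehicle, the most without docetaxel tumour 2, and 0 to 171 for the combination against vehicle. Against docetaxel it gave 0 (without combination tumour 3) to 191, and against ORIN1001 0 to 173. It gave 3 to 82 for J2 on average, 0 to 152 in vehicle, 0 to 35 in ORIN1001, 0 to 152 in docetaxel, 0 to 155 in the combination and 0 to 184 for its change. All of these highest counts but the first came without docetaxel tumour 3. For ORIN1001 against vehicle, and for the changes of the J2 ratio in ORIN1001 and docetaxel, it gave 0 to 0. Without docetaxel tumour 3, 81.3% of TE names were higher and 0.939% lower in the combination against vehicle. These shares were 86.9% and 0.939% against docetaxel and 82.4% and 1.13% against ORIN1001. For J2 they were 47.5% and 7.48% on average, 74.9% and 2.18% in vehicle and 22.8% and 3.03% in ORIN1001. They were 74.6% and 1.7% in docetaxel, 13.4% and 57.1% in the combination, and 3.88% and 77.1% for its change. For the 166 no such share was computed.

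The replicate numbers do not pair the inputs: same-numbered inputs of different treatments correlated above 0.1 in 5 of 18 pairs (-0.409 to 0.297), and the block on the number left the counts at 0, 0, 0, 1 and 0. Without the block on the tumour, J2 called 42 names in docetaxel and 96 in the change for docetaxel, all of them lower. It called 1 in the combination and 3 on average, and left the other J2 counts at 0. These fits include docetaxel tumour 3, and their share over all TE names was not computed.

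Log2 changes of some named repeats turned sign. In the combination against vehicle, TE scaling gave -0.22 for MER5A, -0.16 for MER34B-int, -0.19 for MER5B and -0.13 for MER5A1, alike with and without docetaxel tumour 3. MER53 was at 0.00 by DESeq2 and ran from -0.21 to 0.01 with 1 tumour left out. In the combination against docetaxel, MER5C1 was at 0.84 with TE scaling, 0.74 without docetaxel tumour 3 as well, 0.43 with the replicate block and -0.83 to 2.42 with 1 tumour left out. MER44D was at 0.77, 0.85, 0.16 and -1.38 to 2.50 in the same order, and LTR81C ran from -2.83 to 0.18 with 1 tumour left out. LTR68 was at 0.30 for J2 on average with 8 tumours. The cause of these differences was not tested. Groups of 2 or 3 tumours and J2 libraries with as few as 0.449 M TE counts limit what can be read from names with few counts.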
